A study of Mus musculus with 2 samples.

Results

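Alcohol, aldehyde and retinol dehydrogenases, aldo-keto reductases, hydroxysteroid dehydrogenases and carboxylesterases were measured in small intestinal epithelium grown as a graft in the mouse colon and in normal colonic epithelium. The group was defined by gene symbol: every gene whose symbol begins with Adh, Aldh, Akr, Hsd, Dhrs, Rdh or Ces and a digit, except Hsd11b2. Of 17305 genes with a probe set of their own on the array, 96 met this definition, of which 93 are protein-coding, 2 are transcribed pseudogenes (Rdh18-ps and Adh6-ps1) and 1 is a non-coding RNA (Dhrs13os). The graft came from small intestinal cells of EGFP-transgenic mice on a C57BL6 background, which were cultured for 7 days as stem cell-containing organoids, instilled into the colonic lumen of C57BL6 recipients and taken 4 weeks later. The control was colonic epithelium of a C57BL6 mouse that is not described as a recipient. The genotype difference of the donor (the EGFP transgene), the culture and the transplantation are therefore part of the graft group only. Both epithelia were laser-microdissected, and 1 array was run per group, on the specimen with the highest RNA integrity. Ungrafted small intestine was not analysed here.

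These enzymes carry out the reversible oxidation of alcohols to aldehydes and ketones, the irreversible oxidation of aldehydes to acids, and the cleavage of esters. In the intestine they handle dietary retinol, which becomes retinal and then retinoic acid, as well as steroids, ethanol and the aldehydes made by luminal bacteria, fatty aldehydes and ester-containing drugs and lipids. Many of them lie in tandem arrays of duplicated genes whose copies differ in substrate and in the tissues that express them.

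Every value below is a log2 expression value, and every difference is graft minus colon on that scale, so that a difference of 1 is 2-fold. With 1 array per group no difference has a replicate check and no test was made. The only error in the table is the disagreement between different probe sets of the same gene, an SD of 0.48 over 586 genes, which contains no variation between animals. Because fewer cells of a type and less RNA per cell give the same signal in a tissue sample, they cannot be told apart here. The median of all gene values was 5.48, and a gene is said to be at the median level if its higher value reached this. Of the 96 genes, 47 did, 35 of them on both arrays, 10 on the colon array only and 2 on the graft array only. The other 49 stayed below it on both arrays, and 20 of those lay under the 20th percentile of each array (4.75 in the graft versus 4.74 in the colon), where a signal cannot be separated from background.

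The labelled tissues were checked against marker genes. All 10 general epithelial genes were at the median level, with median levels of 10.28 in the graft versus 9.96 in the colon and summed values of 101.05 and 98.25. Each of the 6 small intestinal enterocyte markers exceeded its colon value by 2-fold or more (median difference 5.57), and all 6 colonocyte markers were at least 4-fold lower (median difference -5.56). Of the 8 fibroblast and smooth muscle genes, 1 was 2-fold lower in the graft and the median difference was -0.45, with summed values of 46.88 and 50.70. Of the 6 leukocyte genes measured, 1 was 2-fold higher (summed values 33.27 and 29.94), and all 5 endothelial genes were below the median level (24.88 and 25.34). Of 5 hepatocyte genes, Alb, Fgb and Cyp2e1 were below the 20th percentile on both arrays. Ttr, which some endocrine cells also express, was at 5.92 in the graft versus 8.61 in the colon. Apoh went the other way, at 5.40 in the graft versus 4.57 in the colon, below the median level on both arrays. Summed values of the 5 were 24.97 and 26.90. Of 4 adipocyte genes Adipoq was below the 20th percentile on both arrays, whereas the lipid droplet gene Cidec was at 7.41 and 4.98 (summed values 22.12 and 19.57). The part of these cell types in the differences below was not tested.

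Lower values in the graft were the more frequent direction among these enzymes. Over all 96 genes, 15 had graft values lower by at least 2-fold (15.6%) against a background of 3.09% of all 17305 genes, and 2 were at least 2-fold higher (2.08%) against 1.93%. The 15 were Hsd3b3, Ces2a, Hsd17b2, Akr1c14, Akr1c19, Rdh9, Adh1, Aldh1a1, Dhrs3, Akr1c13, Aldh1a7, Aldh2, Rdh18-ps, Hsd3b2 and Akr1b8, and the 2 were Aldh18a1 and Adh6a. At 4-fold, 7 genes were lower (7.29%, background 0.745%) and 0 were higher (background 0.595%). Among the 47 at the median level, 14 were 2-fold lower, where the background is 5.68% of 9392 genes, and 2 were 2-fold higher, where it is 3.55%. The 4-fold counts over these 47 were again 7 lower (background 1.37%) and 0 higher (1.1%), and at 1.5-fold 19 were lower (14.6%) and 5 higher (8.42%). Of the 14 that were 2-fold lower, 8 were at the median level on both arrays and 6 reached it through their colon value alone, so that their inclusion depended on the colon being high. The median difference was -0.47 over the 47 genes at the median level and -0.047 over all 9392 genes at that level. Of the 47, 28 lay below 0 and 18 above it, and of the 9392, 5075 lay below 0 and 3908 above it. A majority below 0 was therefore not particular to these enzymes. Over the 96 genes the median difference was 0, as it was over all genes, but the 49 dim genes had little room for a lower value. Even so Rdh18-ps, which is among them, was 2-fold lower (4.33 in the graft versus 5.44 in the colon). Of the 96, 66 lay within 0.5 of 0 and 6 had exactly equal values on both arrays. Over all 17305 genes, 14481 lay within 0.5 of 0 and 2180 had exactly equal values. The plot of both arrays for all genes labels the 7 genes that were 4-fold lower, below the diagonal, and Aldh18a1 and Adh6a above it.

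**Figure D1:**
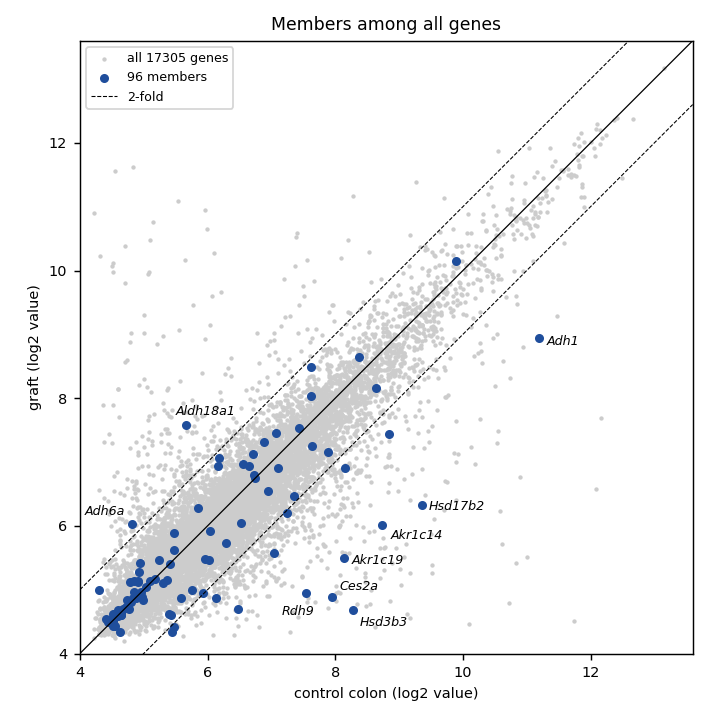
Log2 value in the graft (vertical axis) against the control colon (horizontal axis) for all 17305 genes (grey) and the 96 enzyme genes (blue), 1 array each, with equality as a solid line and 2-fold as dashed lines. Of the blue points 15 lie on or below the lower dashed line and 2 on or above the upper one.

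Enzymes that make and break active steroids included the lowest ratio of the group. Of 20 genes for steroid and bile acid conversion, 6 were 2-fold or more lower in the graft (background 3.09% of all genes). In the upward direction 0 reached 2-fold, which is near the background of 1.93%. Of the 20, 11 stayed below the median level on both arrays. Hsd3b3, a 3-beta-hydroxysteroid dehydrogenase, was at 4.68 in the graft versus 8.27 in the colon, a difference of -3.59 and the 23rd lowest of the 9392 genes at the median level. Hsd17b2, which oxidises estradiol to estrone and testosterone to androstenedione, was at 6.33 in the graft versus 9.36 in the colon (8.13-fold lower). The graft value of Hsd3b3 lay under the graft array's 20th percentile, so that its fold is not determined, whereas Hsd17b2 was above the median level on both arrays. Hsd3b2 was at 4.42 and 5.48, with its colon value at the limit of the median level, and its difference of -1.06 became -0.73 when values under the 20th percentile were raised to it.

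The aldo-keto reductases of subfamily 1C, which reduce ketosteroids and other carbonyls, followed the same direction where they were at the median level. Akr1c14, a 3-alpha-hydroxysteroid dehydrogenase, was at 6.02 in the graft versus 8.73 in the colon (6.57-fold lower). Akr1c19 was at 5.49 and 8.15 (6.29-fold lower), and Akr1c13 was at 7.44 and 8.85 (2.65-fold lower). Akr1c12 was at 7.16 and 7.88, a difference of -0.72 that did not reach 2-fold. Akr1c18, the 20-alpha-hydroxysteroid dehydrogenase that inactivates progesterone, was near the lower end on both arrays (4.68 and 4.59), as was Akr1c20 (4.43 and 4.52). Sequences of this subfamily are similar enough that transcripts of one gene may bind another's probes, so values of single Akr1c genes are uncertain, and the same holds for Hsd3b2 and Hsd3b3.

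Other steroid enzymes differed less. Hsd17b11, an enzyme found on lipid droplets, was at 8.16 in the graft versus 8.64 in the colon. Hsd17b7, which acts in cholesterol synthesis, was at 6.94 and 6.17, a difference of 0.77 in the opposite direction and short of 2-fold. Hsd11b1, which reactivates glucocorticoids, was at 4.83 and 4.77, and Akr1d1, the 5-beta-reductase of bile acid synthesis, at 4.34 and 4.63. Hsd17b6 had a difference of 0.70 but stayed below the median level on both arrays.

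**Figure D2:**
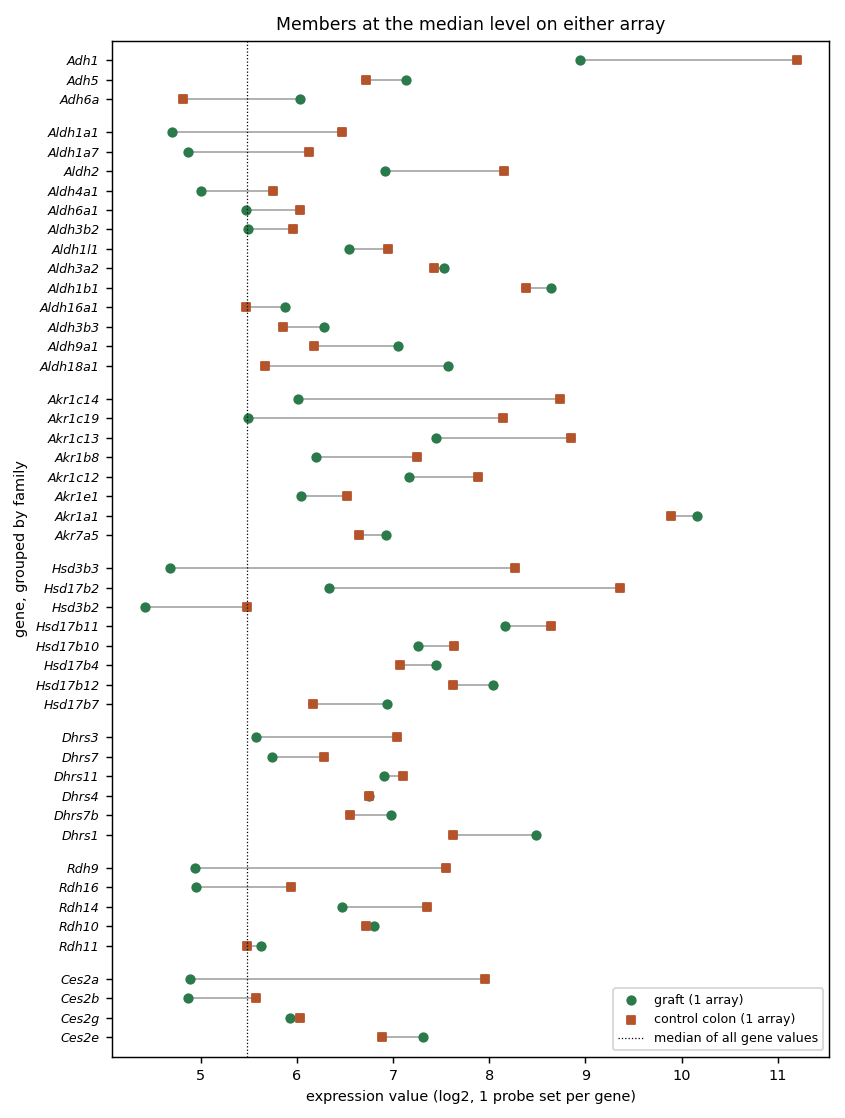
Log2 values of the 47 genes at the median level on either array, grouped by family (vertical axis), with the graft as green circles, the control colon as orange squares, 1 array each, and the median of all gene values, 5.48, as a dotted line. Adh1 runs from 8.94 in the graft to 11.20 in the colon, whereas Akr1a1 sits at 10.16 and 9.89.

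Among genes for interconverting retinol, retinal and retinoic acid, 5 of 10 at the median level were 2-fold or more lower in the graft. The background at that level is 5.68%. The median difference of these 10 was -1.12. Rdh9, Aldh1a1, Aldh1a7 and Rdh16 reached the median level through their colon value alone. Their inclusion among the 10, and with it this median, therefore depended on the colon being high. Of the 10, 7 lay below 0, as did 5075 of all 9392 genes at that level. Of all 23 genes listed for this role, 6 were at least 2-fold lower (background 3.09%) and 0 were 2-fold higher (1.93%). Within 0.5 of 0 lay 15 of the 23, as did 14481 of all 17305 genes. Among the 6, Rdh18-ps is a pseudogene and Aldh1a7 is listed as a relative of Aldh1a1. Adh1, the class I alcohol dehydrogenase that oxidises ethanol and retinol, was at 8.94 in the graft versus 11.20 in the colon, 4.77-fold lower. Rdh9, a short-chain dehydrogenase of cis-retinols and 3-alpha-hydroxysteroids, was at 4.94 and 7.55 (6.09-fold lower). Its graft value was close above that array's 20th percentile of 4.75, so that the fold is uncertain. Aldh1a1, which oxidises retinal to retinoic acid, was at 4.70 and 6.47, with the graft value under the 20th percentile. Its relative Aldh1a7 was at 4.86 and 6.13, with the graft value close above that percentile. Dhrs3 works in the other direction, reducing retinal to retinol, and was also lower, at 5.57 against 7.04 (2.76-fold). Rdh16 and Rdh14 lay just short of 2-fold, at 4.95 against 5.93 and at 6.47 against 7.36.

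Other enzymes of retinoid conversion were not among the lower genes. Rdh10, which makes retinal from retinol, was at 6.80 in the graft versus 6.72 in the colon. Rdh11, a retinal reductase, was at 5.62 and 5.48, and Dhrs4 was at 6.75 on both arrays. Aldh1a2 (4.89 and 4.97) and Aldh1a3 (5.13 and 4.91), the other retinal dehydrogenases of this subfamily, stayed below the median level, as did Adh4 (4.61 and 4.65), Adh7 (4.84 and 4.74) and Dhrs9 (4.87 and 4.84).

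Genes outside the symbol definition that bind, store or sense retinoids went partly the other way. Of 20 such genes measured, 3 were higher in the graft by 2-fold or more (background 1.93%) and 1 was 2-fold lower (3.09%). Their median difference was -0.0058. Rbp2, the binding protein that holds retinol in enterocytes, was at 11.17 in the graft versus 8.28 in the colon, a difference of 2.89. Dgat1, an acyltransferase that can esterify retinol and makes triglyceride, was at 8.48 and 6.31. Lrat, the main retinol-esterifying enzyme, was at 6.52 and 4.63, with the colon value under that array's 20th percentile. Bco2, a carotenoid-cleaving enzyme, was the 1 lower gene, at 5.15 and 6.16. The catabolic enzymes Cyp26a1, Cyp26b1 and Cyp26c1 lay between 4.46 and 5.09 on both arrays.

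Aldehyde-removing enzymes went in both directions. Of 11 genes, 2 were lower in the graft by 2-fold or more (background 3.09%), 0 were 2-fold higher (1.93%) and the median difference was 0.27. Aldh2, the mitochondrial enzyme that clears acetaldehyde, was at 6.91 in the graft versus 8.15 in the colon (2.36-fold lower). Akr1b8, an aldose reductase-like protein, was at 6.20 and 7.25 (2.07-fold lower), just past 2-fold, and its difference was -0.98 with quantile normalization. Aldh1b1, another mitochondrial enzyme with acetaldehyde as a substrate, was at 8.65 and 8.38. Akr1a1, the broad-specificity aldehyde reductase, was at 10.16 and 9.89 and Akr7a5 at 6.93 and 6.64. These 3 were above the median level on both arrays and differed by less than the SD between probe sets. Aldh9a1, an enzyme of carnitine synthesis, was at 7.06 and 6.18, a difference of 0.87. Aldh3b3 was the only gene of the 96 with more than 1 probe set of its own, and these gave differences of 0.43 and 0.29.

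Lipid-oxidising and elongating enzymes all lay within 0.5 of 0, as did 14481 of all 17305 genes. The 4 genes were Hsd17b12, the ketoacyl-CoA reductase of fatty acid elongation (8.04 in the graft versus 7.62 in the colon), Hsd17b4, the peroxisomal bifunctional protein (7.45 and 7.07), the mitochondrial Hsd17b10 (7.26 and 7.63) and the fatty aldehyde dehydrogenase Aldh3a2 (7.53 and 7.43). All 4 were at the median level on both arrays.

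The largest positive difference of the group belonged to an enzyme of amino acid synthesis. Aldh18a1, which makes pyrroline-5-carboxylate from glutamate on the way to proline and ornithine, was at 7.57 in the graft versus 5.67 in the colon, 3.74-fold higher and the 116th highest of 9392 genes. It was at the median level on both arrays. Aldh4a1, which oxidises the same intermediate back to glutamate, was at 5.75 in the colon with a difference of -0.75 that did not reach 2-fold. Of the 9 genes for amino acid and folate metabolism, 1 exceeded 2-fold upward (background 1.93%) and 0 did so downward (3.09%). Adh5, the glutathione-dependent formaldehyde dehydrogenase, was at 7.13 and 6.72, the folate enzyme Aldh1l1 at 6.54 and 6.95, and Aldh6a1 of valine breakdown at 5.47 and 6.03.

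Carboxylesterases, which hydrolyse ester drugs and acylglycerols, were mostly at the lower end of both arrays. Of 16 genes, 4 were at the median level, 1 was at least 2-fold lower (background 3.09%) and 0 were 2-fold higher (1.93%). Ces2a was at 4.89 in the graft versus 7.95 in the colon (8.37-fold lower). Its graft value was close above that array's 20th percentile of 4.75, so that the fold is uncertain. Ces2e, a close relative, was at 7.32 and 6.88, a difference of 0.43 in the opposite direction. Ces2b was at 4.87 and 5.58, and Ces2g at 5.93 and 6.03. All 7 Ces1 genes stayed below the median level, where Ces1f had 4.61 and 5.43 and Ces1d had 4.61 and 5.40.

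The 13 genes without a role fixed for them contained no gene that was 2-fold lower, where the background is 3.09%. Dhrs1 was at 8.49 in the graft versus 7.62 in the colon, a difference of 0.86 and among the 3 genes closest to 2-fold from below. Dhrs7b was at 6.97 and 6.55, Dhrs7 at 5.74 and 6.29, and Dhrs11 at 6.91 and 7.11. Adh6a, a class V alcohol dehydrogenase, was the second gene past 2-fold in the upward direction, at 6.03 in the graft versus 4.82 in the colon. It reached the median level on the graft array only. Its colon value was close above that array's 20th percentile of 4.74, so that the fold is uncertain. Among genes at the median level, those just inside 2-fold on the lower side were Akr1b8 (-1.05), Hsd3b2 (-1.06) and Aldh2 (-1.24), and just outside it were Rdh16 (-0.98), Rdh14 (-0.89) and Aldh4a1 (-0.75).

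**Figure D3:**
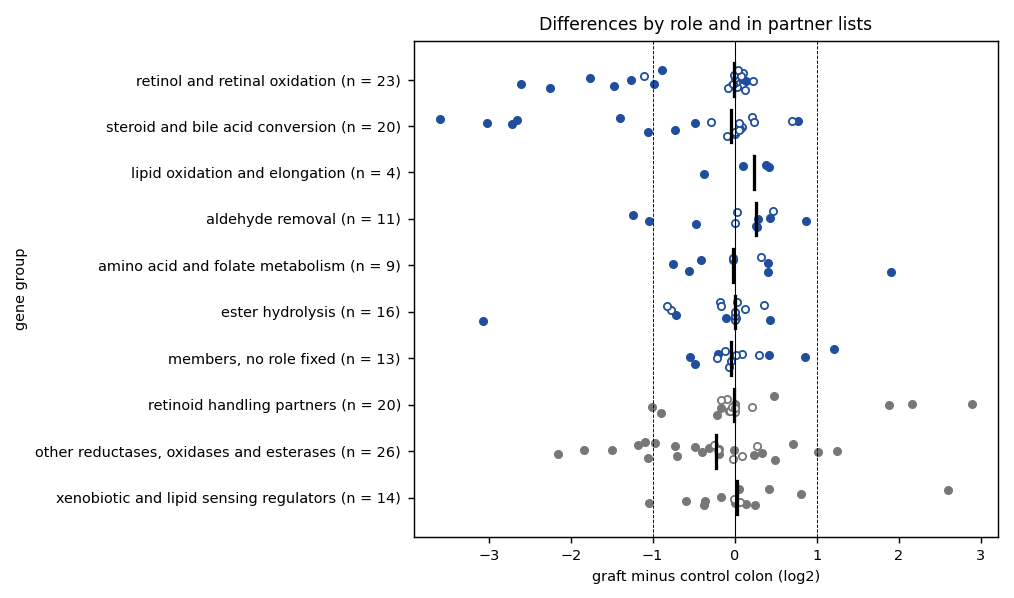
Graft minus colon difference (log2, horizontal axis) of each gene by role for the 96 enzyme genes (blue) and for 3 lists of other genes (grey); filled points were at the median level, open points were not, black bars are medians and dashed lines mark 2-fold. Points beyond -2 are in the retinoid, steroid and esterase rows and among the other reductases.

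Enzymes of the same reactions that carry other names were also more often lower than higher, so this direction was not particular to the symbol-defined group. Of 26 measured, 6 were lower by 2-fold or more (background 3.09% of all genes) and 2 were higher (1.93%). The median difference of the 26 was -0.23. Of the 21 at the median level, 15 lay below 0 and 6 above it, with a median difference of -0.39. Of all 9392 genes at that level, 5075 lay below 0 and 3908 above it, with a median difference of -0.047. Aadac, a microsomal deacetylase related to lipases, was at 5.45 in the graft versus 7.60 in the colon, a difference of -2.16. The carbonyl reductases Cbr3 (6.15 and 7.99) and Cbr1 (6.83 and 8.32) were lower by 3.58-fold and 2.82-fold. The epoxide hydrolase Ephx2 was at 7.12 and 5.87, a difference of 1.25. Among 14 regulators of lipid and xenobiotic metabolism, 1 was 2-fold higher (background 1.93%) and 1 was 2-fold lower (3.09%). Gata4, a transcription factor of the proximal intestine, had a difference of 2.61, and the nuclear receptor Pparg was at 6.84 and 7.88, a difference of -1.04. The xenobiotic receptor Nr1i2 had a difference of -0.60, the homeobox factor Cdx2 had one of 0.82, and Hnf4a was at 8.86 and 8.81.

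Some neighbouring copies of these genes had unlike differences and others had like ones. On GRCm38.p6, 59 of the 96 genes lie in 14 runs in which each member is within 250 kb of the next, other genes between them being allowed, and 12 of the 15 genes that were 2-fold lower lie in such runs. There were 8 runs of at least 3 members, and 5 of these contained a 2-fold lower gene. In the run of Hsd3b genes the difference went from 0.054 for Hsd3b5 to -1.06 for Hsd3b2 and -3.59 for Hsd3b3. In the run from Rdh1 to Hsd17b6, Rdh9 at -2.61 lay next to Rdh1 at 0.013, and Rdh16 and Rdh18-ps followed at -0.98 and -1.10, whereas Rdh19, Rdh16f2 and Rdh7 lay between -0.22 and 0.13. In the Akr1c run, Akr1c18 at 0.086 stood between Akr1c14 at -2.72 and Akr1c13 at -1.40. Adjacent members were also both 2-fold lower in places: Hsd3b2 beside Hsd3b3, Akr1c13 beside Akr1c19, and Aldh1a1 beside Aldh1a7 (-1.77 and -1.26, with the graft value of Aldh1a1 under the 20th percentile). In the Hsd3b and Akr1c pairs, transcripts of one gene may bind the other's probes, so the 2 values may not be separate. Whether this holds for Aldh1a1 and Aldh1a7 was not tested. Genes near background on both arrays, such as Rdh1, Hsd3b5 and Akr1c18, could not show a lower value in the graft.

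**Figure D4:**
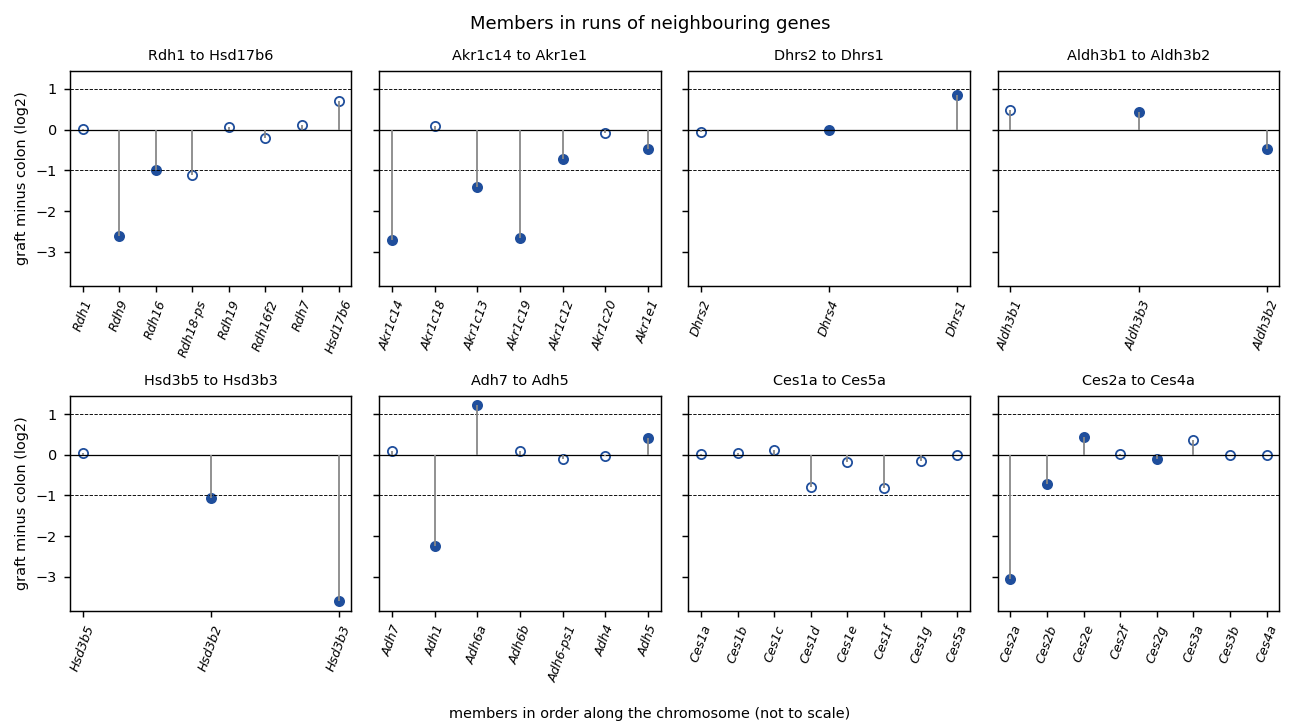
Graft minus colon difference (log2, vertical axis) of members in the 8 runs of at least 3 neighbouring members, in their order along the chromosome (horizontal axis, not to scale); filled points were at the median level, open points were not, and dashed lines mark 2-fold. Adh1 at -2.25 stands beside Adh6a at 1.21, and Ces2a at -3.07 is 2 members away from Ces2e at 0.43.

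The Adh and Ces2 runs each held a pair at the median level with differences of opposite sign, Adh1 with Adh6a and Ces2a with Ces2e, although that of Ces2e was smaller than the SD between probe sets. Their promoter sequences are shown to set the 2 pairs side by side: the 250 bases before each gene's start, from RefSeq on GRCm38.p6, with capitals marking matches to any of the 6 motifs searched.
Adh1, GRCm38.p6 chr3:138277335-138277584, plus strand: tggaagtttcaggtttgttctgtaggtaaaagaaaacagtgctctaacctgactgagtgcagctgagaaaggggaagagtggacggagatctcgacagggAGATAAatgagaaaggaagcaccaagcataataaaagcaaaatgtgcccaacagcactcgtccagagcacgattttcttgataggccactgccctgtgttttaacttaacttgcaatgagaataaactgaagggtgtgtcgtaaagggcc
Adh6a, GRCm38.p6 chr3:138313036-138313285, plus strand: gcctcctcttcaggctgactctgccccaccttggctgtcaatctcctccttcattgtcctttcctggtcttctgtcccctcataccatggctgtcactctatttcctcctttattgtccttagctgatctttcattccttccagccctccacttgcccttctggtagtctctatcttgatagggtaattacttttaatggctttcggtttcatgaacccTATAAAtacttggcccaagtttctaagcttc
Ces2a, GRCm38.p6 chr8:104733753-104734002, plus strand: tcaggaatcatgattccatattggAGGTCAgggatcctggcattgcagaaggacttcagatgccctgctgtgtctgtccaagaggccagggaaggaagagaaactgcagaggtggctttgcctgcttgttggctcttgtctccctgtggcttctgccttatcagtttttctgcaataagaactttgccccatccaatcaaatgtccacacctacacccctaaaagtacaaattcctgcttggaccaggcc
Ces2e, GRCm38.p6 chr8:104926010-104926259, plus strand: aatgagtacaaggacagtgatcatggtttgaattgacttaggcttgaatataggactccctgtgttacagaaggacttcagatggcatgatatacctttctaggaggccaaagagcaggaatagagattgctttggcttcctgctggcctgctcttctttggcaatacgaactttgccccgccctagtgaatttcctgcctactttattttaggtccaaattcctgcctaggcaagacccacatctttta
The motifs were TATAAA (for the general promoter-binding factor TBP), AGGTCA (nuclear receptor core site), GTTAAT (HNF1 core site), AGATAA (for zinc finger factors of the Gata family), TTTATG (Cdx site) and CAAAGTCCA (HNF4 site), searched on both strands. The Adh1 window held AGATAA at position -150 from the start, the Adh6a window held TATAAA at -31, the Ces2a window held AGGTCA at -226, and the Ces2e window held none of the 6. Of all 27025 genes in the promoter table, 11.4% had a window with AGATAA, 14.3% one with TATAAA, 15.8% one with AGGTCA, 7.49% one with GTTAAT, 12.4% one with TTTATG and 0.451% one with CAAAGTCCA. In a global alignment, the Ces2a and Ces2e windows were identical at 164 of 286 columns (57.3%), the Adh1 and Adh6a windows at 134 of 297 (45.1%), and, across families, those of Adh1 and Ces2a at 143 of 282 (50.7%). A match of these letters is a description and not a binding site.

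The number of promoter CpG dinucleotides was counted as a feature that the symbol definition did not use. A promoter window was found for 74 of the 96 genes by gene identifier, and where a gene had several windows the highest CpG number was taken. The 12 genes with a window among the 15 that were 2-fold lower had a median of 1.5 CpG dinucleotides in 250 bases and a median GC content of 43.0%, and 10 of them had 5 or fewer CpG. The 27 genes with a window that were at the median level and under 2-fold had a median of 9 CpG, and 6 of them had 5 or fewer. The 60 genes with a window that were under 2-fold at any level were closer to the lower genes, with a median of 5 CpG and 32 genes (53.3%) at 5 or fewer. Over all 27025 genes in the promoter table the median was 6, and 47.4% had 5 or fewer. Over all measured genes with a window the median was 14 and 23.9% had 5 or fewer. Over all 2-fold lower genes with a window the median was 12 and 30.0% had 5 or fewer. CpG number also followed gene position: the 48 members in runs had a median of 2 CpG, and the 26 outside runs had a median of 9. AGATAA was present for 5 of the 12 lower genes (Adh1, Akr1c19, Aldh1a1, Hsd3b3 and Rdh9) and for 3 of the 27 others at the median level. It was present for 7 of the 60 genes under 2-fold at any level. Among genes with a window, it was present for 8.45% of all 2-fold lower genes and 8.63% of all measured genes. It was singled out from the 6 motifs after the counts were seen. The other motifs were present for at most 2 of the 12.

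**Figure D5:**
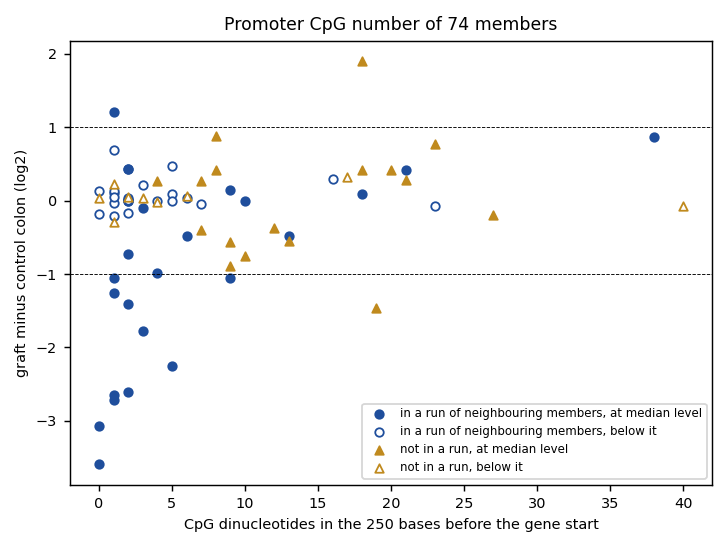
Graft minus colon difference (log2, vertical axis) against the number of CpG dinucleotides in the 250 bases before the gene start (horizontal axis) for the 74 genes with a promoter window, by membership in a run of neighbouring members (circles) or not (triangles); filled points were at the median level and dashed lines mark 2-fold. Of the 12 lower genes, Dhrs3 with 19 CpG and Akr1b8 with 9 are the 2 with more than 5.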

How the data were processed

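Total RNA (4.33 ng per sample) of 1 graft and 1 control colon was amplified, labelled with biotin and hybridised to 1 array each, per the labels' protocols. The table deposited by the authors has log2 values for 24074 probe sets on both arrays; their software and normalization are not named in the labels. That the scale is log2 was inferred from its range, 4.19 to 13.37 and 4.22 to 13.46, whose medians were 5.44 and 5.43; whether arrays had been centred stays unknown. Of the probe sets, 18904 had 1 gene symbol in the platform annotation, 1330 several and 3840 none, and only the first kind was used. The probe set with the highest mean over both arrays stood for a gene. All 96 genes matched the RefSeq table of GRCm38.p6. Protein sequences were not used here.

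Differences were taken without further normalization and counted at 2-fold and 4-fold (Python 3.11.15, pandas 2.3.3). Counting was tested on simulated data, with 4-fold shifts placed only in genes well above the median level. Recovery of differences near 2-fold or of genes near background was therefore not tested. Windows were aligned with Biopython 1.88. Without detection calls, a difference against a value near the lower end is understated by an unknown amount, and the number of arrays limits precision. The members, roles and lists were chosen with earlier results of these data known. Named genes were those past 2-fold or nearest it, the brightest of each family and the largest differences of each list; the rest were picked with values in view. The alternatives tried were other probe set summaries, level filters, normalizations and fold thresholds.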

Additional observations from a re-analysis of the deposited data

How the results depend on the processing

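The count of 2-fold lower genes, 14 of 47, stayed between 11 and 15 under every alternative at that threshold: averaged probe sets, probe sets of several symbols, quantile normalization, centring, no level filter, a level at the 75th percentile, a level set by the mean of both arrays, and values raised to the 20th percentile of their array. The last 2 were chosen after seeing the data. The number of genes admitted changed too, so the share was less stable than the count. The count was 11 of 32 with the level at the 75th percentile, 13 of 42 by the mean of both arrays and 15 of 96 unfiltered. With a 4-fold threshold the count was 7, and with a 1.5-fold threshold it was 19. The count of higher genes, 2, was 5 at 1.5-fold, 0 at 4-fold, and 1 with the level at the 75th percentile or by the mean of both arrays. The median difference of the genes at the median level was -0.47, and it was -0.29 with the level at the 75th percentile and 0 with no level filter. These settings differ by construction in the genes they admit or in the fold they ask for. Quantile normalization was the alternative that could move most single genes, and it shifted the 28 named genes by at most 0.084. The probe set alternatives leave all of these genes but Aldh3b3 as they are because each has 1 probe set of its own, so they say nothing about stability. No paired analysis was possible because there is 1 sample per group. Low signal limits the 49 genes below the median level on both arrays, and the graft values of Hsd3b3, Hsd3b2 and Aldh1a1. It also limits the graft values of Ces2a (4.89), Rdh9 (4.94) and Aldh1a7 (4.86), which lay close above the 20th percentile of 4.75. The colon value of Adh6a (4.82) is limited likewise, as it lay close above the colon array's 20th percentile of 4.74.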

Other observations

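Among probe sets assigned to several genes, which enter no result above, 4 carried the symbol of a member, and none differed between the arrays by 2-fold. The 2 probe sets shared by Hsd3b4, Hsd3b5 and Gm10681 were at 5.14 on both arrays, and one shared by Aldh3b2 and Aldh3b3 was at 4.59 in the graft versus 4.69 in the colon.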
